A study of Mus musculus with 63 samples.

Results

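The secreted products of Paneth cells other than the defensins were examined as 7 genes taken by symbol from the count tables, of 54752 genes counted. They were *Lyz1*, *Ang4*, *Mmp7*, *Itln1*, *Pla2g2a*, *Mptx1* and *Mptx2*. RNA-Seq reads were counted in 57 mouse libraries that fell into 19 groups of 3, from small intestinal organoids (cultures grown from crypts) and from intestinal epithelial cells (IECs). The question the study put to these groups was what loss of the Mediator kinases CDK8 and CDK19 does to the intestinal epithelium. All mice were C57BL/6, and Cre was a tamoxifen-inducible form driven by the villin promoter, which is active in intestinal epithelium (*VillinCreERT2*).

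The first set held 5 organoid genotypes, all collected 7 days after 4-hydroxytamoxifen (4-OHT, 100 nM for a day): *VillinCreERT2* alone, C57BL/6, *VillinCreERT2* with *Cdk8 fl/fl* (CDK8iIEC-KO after 4-OHT), *Cdk8 fl/fl* with *Cdk19 ko/ko* and no Cre (*Cdk8fl/fl/Cdk19-/-*), and *VillinCreERT2* with both (CDK8iIEC-KO/*Cdk19-/-*). A time course followed the last of these genotypes after 4-OHT or ethanol vehicle (EtOH) at days 3, 5, 7 and 10, and a further set held the same genotype and treatments at day 10 in Wnt3-conditioned medium (Wnt3-CM). The EtOH organoids of both sets thus already lacked *Cdk19*. Kinase-dead organoids (*Cdk19D173A/-*, with *Cdk8 fl/fl* and *VillinCreERT2*) were compared between 4-OHT and EtOH at day 7. No organoids without *Cdk8 fl/fl* were given EtOH. Exposure to 4-OHT, Cre activation and CDK8 loss therefore cannot be told apart between 4-OHT and EtOH organoids. IECs came from *VillinCreERT2* and CDK8iIEC-KO/*Cdk19-/-* mice, both given tamoxifen at 80 mg/kg daily and collected 14 days after the last injection. Each group of organoids carried a single line number in its column names, so the line and the genotype cannot be told apart within a set. The combined genotype came from a line of its own in the 5-genotype set and from another line in the time course and Wnt3-CM sets. The labels do not say whether the 3 libraries of a group came from separate cultures, so p-values measure the spread between these libraries, which may be technical.

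Paneth cells sit at the base of small intestinal crypts, beside the stem cells, and release granules of antimicrobial protein into the crypt lumen. Their best known products are the alpha-defensins, and the 7 genes here encode the enzymes and lectins that are released with them. *Lyz1* encodes lysozyme, which cleaves bacterial peptidoglycan. *Ang4* is an angiogenin-family ribonuclease with microbicidal activity, and *Pla2g2a* is a secretory phospholipase A2 that attacks bacterial membranes. *Mmp7* encodes matrilysin, the protease that activates the alpha-defensin precursors in mice. *Itln1* encodes intelectin, a lectin for microbial glycans that goblet cells also make. *Mptx1* and *Mptx2* are mucosal pentraxins, secreted relatives of serum amyloid P. C57BL/6 mice carry a frameshift in *Pla2g2a*, so its transcript level is not a measure of active enzyme.

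On GRCm38 with GENCODE vM21, *Lyz1* lay at chr10:117287797-117292868 on the minus strand and its paralog *Lyz2*, the lysozyme of myeloid cells, at chr10:117277331-117282321. The pentraxins lay on chromosome 1, *Mptx1* at chr1:174330518-174332873 on the plus strand and *Mptx2* at chr1:173274382-173277777 on the minus strand, and *Itln1* lay on the same chromosome at chr1:171518122-171535294. *Ang4* was at chr14:51763878-51773590, *Mmp7* at chr9:7692090-7699585 and *Pla2g2a*, annotated as a polymorphic pseudogene, at chr4:138831857-138835186. *Mmp7* shared 123 of its 1068 exonic bases with the antisense gene *AV064505*, and whether counting used strand is not given in the sources used here, so reads of those bases cannot be assigned to either gene.

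The sequences that precede the starts of the pentraxins and lysozymes are shown because the values below set the members of each pair side by side. They are taken from the RefSeq promoter table on GRCm38. CANNTG (the E-box, bound by basic helix-loop-helix factors such as ATOH1) and CTTTGA (the core of TCF/LEF sites) are in capitals wherever either strand held them.
Mptx1: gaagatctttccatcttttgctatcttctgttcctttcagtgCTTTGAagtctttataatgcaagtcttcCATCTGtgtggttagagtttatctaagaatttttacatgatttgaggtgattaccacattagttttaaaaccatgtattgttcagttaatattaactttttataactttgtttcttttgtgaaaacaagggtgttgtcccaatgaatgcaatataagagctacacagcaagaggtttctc
Mptx2: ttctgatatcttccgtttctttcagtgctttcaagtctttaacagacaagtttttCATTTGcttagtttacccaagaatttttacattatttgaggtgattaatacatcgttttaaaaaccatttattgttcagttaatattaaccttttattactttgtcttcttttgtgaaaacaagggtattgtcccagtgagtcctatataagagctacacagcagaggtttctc
Lyz1: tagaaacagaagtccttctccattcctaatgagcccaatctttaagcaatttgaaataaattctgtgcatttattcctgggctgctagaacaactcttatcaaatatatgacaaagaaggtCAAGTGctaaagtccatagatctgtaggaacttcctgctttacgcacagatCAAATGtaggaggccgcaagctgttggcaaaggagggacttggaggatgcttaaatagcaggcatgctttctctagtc
Lyz2: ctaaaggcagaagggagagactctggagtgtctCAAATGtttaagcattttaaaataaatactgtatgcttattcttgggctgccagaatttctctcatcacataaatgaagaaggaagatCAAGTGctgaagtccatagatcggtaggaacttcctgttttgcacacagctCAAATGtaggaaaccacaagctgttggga
The windows were chr1:174330268-174330517 (plus strand), chr1:173277778-173278006 (minus strand), chr10:117292869-117293118 (minus strand) and chr10:117282322-117282522 (minus strand), and all were written 5′ to 3′ along the gene. The pentraxin windows were 84.8% identical over 237 aligned bases and the lysozyme windows 74.8% identical over 202. CTTTGA occurred in 1 of the 6 members with a promoter entry, 208 bases before the *Mptx1* start, and in 13.8% of 32851 promoters cut to 250 bases. CANNTG occurred in all 6, against 66.2% of promoters. Its variant CAGCTG occurred in none of the 6, against 13% of promoters. These matches are descriptions of letters only. *Pla2g2a* had no entry.

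Paralogs can also share reads. *Mptx1* and *Mptx2* transcripts were 92.5% identical and *Lyz1* and *Lyz2* transcripts 95.8% identical. Of all 100-base windows, the read length of these libraries, 23 of 700 in *Mptx1* and 24 of 1164 in *Lyz1* occurred exactly in the paralog. Reads from these windows were uncertain between the paralogs, and the other windows told them apart.

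Libraries held 15485959 to 32909565 counts assigned to genes, and all 7 genes passed the filter on low counts in every comparison. Gene-level *Cdk8* counts (711 to 2166) and *Cdk19* counts (293 to 1229) are sums over whole genes. Which exons were deleted is not given in the sources used here, so these counts could not check the genotype labels. Organoids held epithelium (*Epcam*, *Vil1*, *Cdx2*, *Cdh1*, *Krt20* and *Lgr5*, 3179 to 5735 CPM summed, CPM being counts scaled to the size of the library) and few transcripts of other cells: the 9 immune markers summed to 1.42 to 7.52 CPM and the 6 mesenchymal markers to 0.105 to 36.6 CPM. The pancreatic list reached 164 CPM, nearly all *Ctrb1*, while *Prss2*, *Cpa1* and *Amy2a5* were at 0 in all 51 organoid libraries. A gene was called changed at a Benjamini-Hochberg adjusted p under 0.05 in edgeR's quasi-likelihood test over all genes and a fold change over 1.5, and "rose" and "fell" are used here for such calls only. The share of all genes tested that passed the same rule is given as the background beside each count. Fewer Paneth cells and less RNA per Paneth cell cannot be told apart in bulk RNA.

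Abundance differed widely among the 7 genes. In day 10 EtOH organoids, *Lyz1* was at 4599.7 ± 72.9 CPM per kb of exon (mean ± SD, n = 3), *Itln1* at 909.6 ± 41.7, *Ang4* at 410.0 ± 10.5 and *Mmp7* at 185 ± 5.59. The pentraxins and the phospholipase followed, with *Mptx2* at 68.8 ± 8.54, *Mptx1* at 27.5 ± 3.14 and *Pla2g2a* at 13.8 ± 2.07 CPM per kb. Neighbours in this order differed by more than their SDs. The order was not fixed: in *VillinCreERT2* organoids *Itln1* led at 985 ± 36.6 CPM per kb against 481 ± 12.5 for *Lyz1*, and *Mptx2* was at 2.22 ± 1.19, within an SD of *Pla2g2a* at 1.59 ± 0.450. Each set of libraries was scaled on its own, so levels are compared within a set.

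All 7 transcripts together made up 0.743% ± 0.00604 of counts in day 10 EtOH organoids (SD, n = 3) and 0.202% ± 0.0169 after 4-OHT. At day 3 the sums were 0.339% ± 0.0288 with EtOH and 0.384% ± 0.0366 with 4-OHT. The time course opened with little difference in the sum and ended with a large one, and the genes did not take the same path to it.

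At day 3 after 4-OHT, *Mptx1* had already fallen, while *Pla2g2a* and *Mptx2* had risen. *Mptx1* was at 57.2, 62.2 and 50.2 CPM in the EtOH libraries and at 5.76, 5.29 and 5.64 CPM in the 4-OHT libraries. The groups lay far apart, with all 4-OHT libraries near the same low level. The fall was 10.1-fold (log2 fold change -3.34 ± 0.28, SE; adjusted p = 4.86e-08, edgeR). Its paralog moved the other way: *Mptx2* was at 54.7, 68.8 and 51.2 CPM with EtOH and 132, 87.7 and 100.4 CPM with 4-OHT, higher in 3 of 3 libraries without overlap. That rise was 1.84-fold (0.88 ± 0.25 on the log2 scale, adjusted p = 0.0114), and it lost its call without EtOH replicate 3 (adjusted p = 0.0511) or without 4-OHT replicate 1 (adjusted p = 0.0671). *Pla2g2a* was at 21.3, 22.4 and 23.9 CPM with EtOH and 47.6, 44.0 and 33.0 CPM with 4-OHT. It rose 1.84-fold (0.88 ± 0.12 on the log2 scale, adjusted p = 2.13e-06), again with no overlap.

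The 4 most abundant members did not pass the rule at day 3. *Lyz1* gave 2074, 2493 and 1986 CPM with EtOH and 2945, 2619 and 2376 CPM with 4-OHT, and the ranges overlapped (log2 fold change 0.28 ± 0.11, adjusted p = 0.0527). *Ang4* and *Mmp7* also overlapped, with log2 fold changes of 0.14 ± 0.12 and 0.18 ± 0.09, and *Itln1* had -0.14 ± 0.07. Thus 1 of 7 members was called lower and 2 higher, beside a background of 5.95% of genes lower and 6.42% higher.

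By day 5, 6 of 7 members had fallen, beside 4.62% of all genes called lower and 8.58% higher. *Lyz1* was at 3752, 3720.0 and 2711 CPM with EtOH and 1845, 1619.6 and 1606 CPM with 4-OHT, and every 4-OHT library lay under every EtOH library. The fall was 2.01-fold (-1.01 ± 0.11 on the log2 scale, adjusted p = 2.01e-07). *Pla2g2a*, which had been higher in 4-OHT organoids at day 3, was 3.75-fold lower (adjusted p = 2.26e-11), at 8.55, 9.09 and 11.6 CPM against 37.2, 31.3 and 41.3 CPM with EtOH. The defensin-activating protease *Mmp7* fell 1.70-fold, *Ang4* 1.89-fold, *Itln1* 2.64-fold and *Mptx1* 9.09-fold, with adjusted p-values from 4.1e-15 to 3.81e-06 in edgeR. *Mptx2* alone was not called at day 5. Its values, 77.5, 72.8 and 106 CPM with EtOH and 77.0, 70.4 and 81.1 CPM with 4-OHT, overlapped (log2 fold change -0.17 ± 0.25, adjusted p = 0.635).

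At day 7 all 7 members had fallen, beside 9.25% of genes lower and 9.00% higher, and no 4-OHT library of any member reached the EtOH range. The folds ran from 1.88 for *Mmp7* to 5.69 for *Pla2g2a*. *Lyz1* was 3.09-fold lower (-1.63 ± 0.11 on the log2 scale, adjusted p = 3.6e-11), with 3808, 3129 and 3546 CPM under EtOH and 1071, 1093 and 1229 CPM under 4-OHT. The widest spread was that of *Mptx2* after 4-OHT, at 23.2, 31.3 and 57.8 CPM against 68.9, 59.6 and 83.4 CPM with EtOH. Its 1.88-fold fall (adjusted p = 0.00786) missed the threshold when only the day 7 libraries were fitted (adjusted p = 0.0902).

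All 7 were lower again at day 10, with a background of 6.92% lower and 8.86% higher. *Pla2g2a* showed the largest fall of the 7, 10.7-fold (-3.42 ± 0.20 on the log2 scale, adjusted p = 1.52e-13). It had 227, 248 and 292 counts with EtOH and 19, 20 and 29 counts with 4-OHT. *Lyz1*, the most abundant, was at 5704, 5875 and 5849 CPM with EtOH and 1499, 1773 and 1623 CPM with 4-OHT. Its EtOH libraries were close to one another, and the fall was 3.56-fold (-1.83 ± 0.11 on the log2 scale, adjusted p = 3.57e-12). The lectin *Itln1* went from 1092, 1018 and 1004 CPM to 204, 214 and 184 CPM, a 5.17-fold fall (adjusted p = 7.17e-21). *Ang4* fell 4.26-fold, *Mptx1* 8.14-fold, *Mmp7* 2.24-fold and *Mptx2* 2.22-fold.

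**Figure D1:**
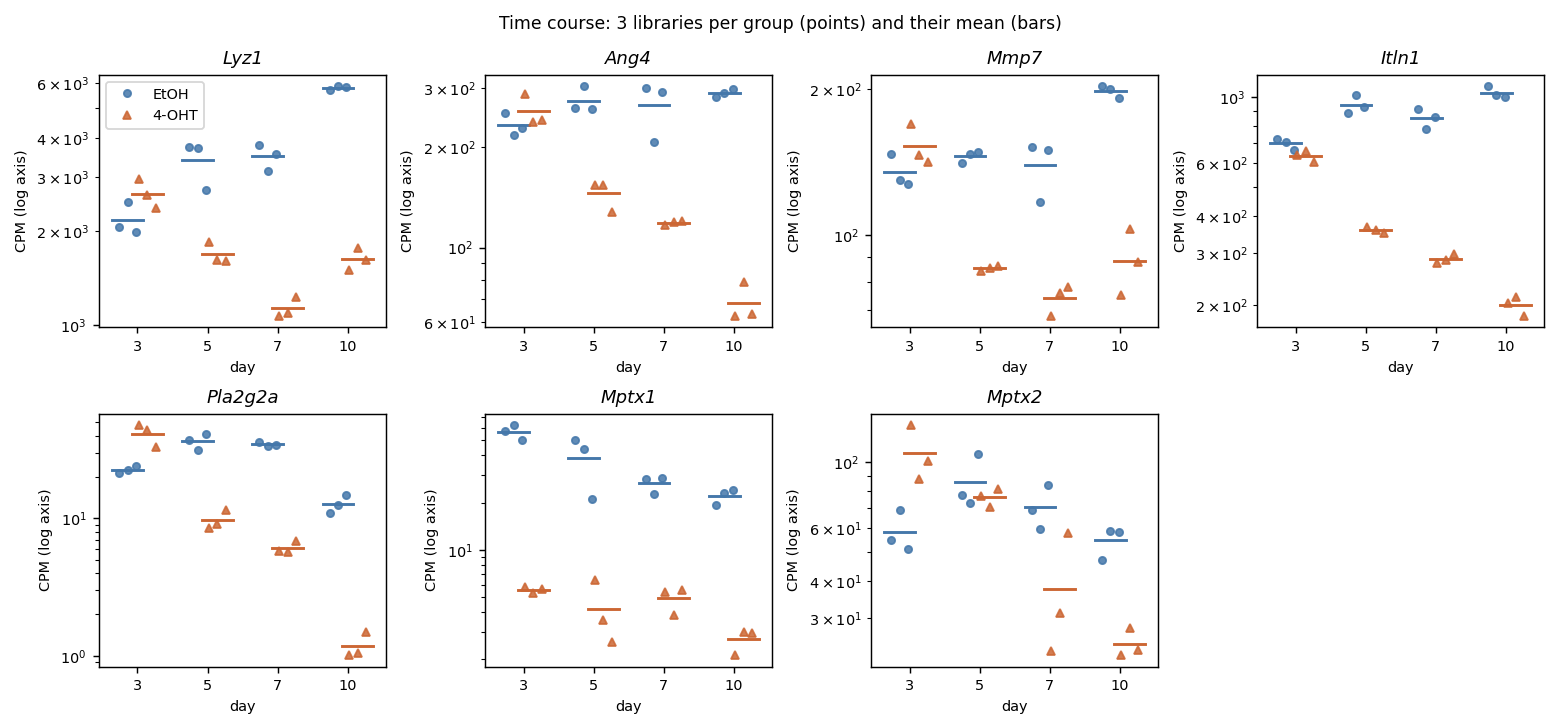
CPM (log axis) of each of the 7 genes in EtOH and 4-OHT organoids at days 3, 5, 7 and 10, with 3 libraries per group as points and their mean as a bar. *Mptx1* is already apart at day 3, *Pla2g2a* and *Mptx2* are higher with 4-OHT at day 3, *Pla2g2a* is lower from day 5 and *Mptx2* from day 7, and the other 4 are lower and clear of EtOH from day 5.

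The change in the response between day 3 and day 10 was tested directly. It was toward lower levels for 6 of 7 members, beside 12.4% of genes lower and 13.9% higher. *Pla2g2a* shifted most, by -4.30 ± 0.24 on the log2 scale (adjusted p = 3.78e-14), from a rise to a fall. *Ang4* and *Itln1* each shifted by -2.23, *Lyz1* by -2.11, *Mptx2* by -2.02 and *Mmp7* by -1.34, with adjusted p-values of 0.000228 or less. *Mptx1* was the exception: its day 10 response differed from that at day 3 by 0.32 ± 0.46 (adjusted p = 0.612), and its fold was 10.1 at day 3, 9.09 at day 5, 5.40 at day 7 and 8.14 at day 10.

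EtOH organoids were not constant over the same days. *Lyz1* had 1986 to 2493 CPM at day 3 and 5704 to 5875 CPM at day 10, whereas *Mptx1* had 50.2 to 62.2 CPM at day 3 and 19.2 to 23.9 CPM at day 10. *Pla2g2a* had 21.3 to 23.9 CPM at day 3, 31.3 to 41.3 at day 5, 33.9 to 36.0 at day 7 and 11.0 to 14.8 at day 10. Every fold above is therefore against an EtOH level of the same day.

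Among the 5 organoid lines, loss of CDK8 alone left *Lyz1*, *Ang4* and *Itln1* close to the *VillinCreERT2* control. *Lyz1* was at 562, 539 and 559 CPM against 592, 608 and 624 CPM, lower in 3 of 3 libraries but by 1.10-fold (adjusted p = 0.0816). *Ang4* and *Itln1* were 1.26-fold and 1.17-fold lower (adjusted p = 0.00218 and 0.00355), and *Mmp7* 1.40-fold higher (adjusted p = 4.28e-05), all under the fold threshold. The pentraxins again went in opposite directions. *Mptx1* had 3.62, 3.71 and 3.48 CPM against 14.0, 13.7 and 9.50 CPM and fell 3.44-fold (-1.78 ± 0.23 on the log2 scale, adjusted p = 4.16e-05). *Mptx2* had 5.06, 6.13 and 6.96 CPM against 1.52, 0.960 and 2.80 CPM and rose 3.45-fold (1.79 ± 0.25, adjusted p = 3.53e-05). Neither pair of groups overlapped. *Pla2g2a* also rose, 2.12-fold (adjusted p = 0.000181), from 21, 37 and 33 counts to 72, 59 and 74 counts. The rises of *Mptx2* and *Pla2g2a* hold against *VillinCreERT2* only. C57BL/6 organoids held more of both than CDK8iIEC-KO organoids, with *Mptx2* at 43.0 to 49.2 CPM. *Pla2g2a* was at 5.84 to 6.58 CPM in C57BL/6 and 2.70 to 3.44 CPM in CDK8iIEC-KO organoids. In all, 1 member was called lower and 2 higher, beside 4.34% and 2.90% of genes. Marker lists of other cells and regions separated between the same libraries. In CDK8iIEC-KO organoids the 6 genes listed for the proximal small intestine (*Gata4*, *Pdx1*, *Onecut2*, *Lct*, *Adh6a* and *Apoa4*) summed to 1586 to 1709 CPM. The sums were 1935 to 2341 CPM in *VillinCreERT2*. The 6 genes listed for the distal small intestine (*Fabp6*, *Slc10a2*, *Muc13*, *Osr2*, *Hoxb8* and *Guca2a*) summed to 1089 to 1173 CPM against 1428 to 1939 CPM. The 10 goblet cell genes, among them the mucin *Muc2*, summed to 2683 to 2846 CPM against 3771 to 3922 CPM. All 3 were lower without overlap, and 4 of 9 goblet genes were called lower and none higher. The pancreatic list was higher without overlap, at 40.9 to 45.9 CPM against 16.2 to 27.1 CPM. Their part in the members' values was not tested.

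Loss of CDK19 alone was compared with C57BL/6 organoids. *Lyz1* was at 1407, 1471 and 1440.3 CPM against 2229, 2401 and 2658 CPM and fell 1.69-fold (-0.75 ± 0.06 on the log2 scale, adjusted p = 2.18e-10). *Mptx1* was at 14.7, 17.8 and 16.7 CPM against 24.3, 30.6 and 43.1 CPM and fell 2.00-fold (-1.00 ± 0.18, adjusted p = 0.00131). Neither gene's groups overlapped, and these were the 2 of 7 members called lower, with none higher, beside 2.39% and 2.86% of genes. The other 5 had log2 fold changes between -0.40 (*Mptx2*) and 0.50 (*Pla2g2a*). *Ang4*, *Mmp7* and *Itln1* overlapped between the lines. Marker lists separated these lines too. The distal sums (1312 to 1452 CPM against 1157 to 1227 CPM in C57BL/6) and epithelial sums (3833 to 3991 against 3495 to 3661) were higher without overlap. The pancreatic sums were lower without overlap, at 13.6 to 14.8 CPM against 22.8 to 37.8 CPM. The proximal, goblet, immune and mesenchymal sums overlapped. The part of the lists in the *Lyz1* and *Mptx1* falls was not tested.

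With combined loss, 6 of 7 members fell against *VillinCreERT2*, beside 7.95% of genes lower and 11.5% higher. *Lyz1* was at 249, 235 and 256 CPM against 592, 608 and 624 CPM in the control, a 2.46-fold fall (-1.30 ± 0.06 on the log2 scale, adjusted p = 2.6e-15). *Itln1* was at 295, 297 and 299 CPM against 1129, 1079 and 1162 CPM and fell 3.78-fold (adjusted p = 3.09e-19). Both were tightly grouped, and the lines did not overlap. *Ang4* fell 4.15-fold, from 95.6 to 101 CPM to 21.3 to 26.5 CPM, and *Mmp7* 1.71-fold, from 46.8 to 53.7 CPM to 25.7 to 31.5 CPM. *Mptx1* fell most, 16.2-fold (-4.02 ± 0.33, adjusted p = 9.94e-08), from 294, 286 and 190 counts to 9, 15 and 17 counts. *Pla2g2a* fell 5.55-fold (adjusted p = 1.84e-06), and the combined line held 5, 7 and 2 counts of it.

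*Mptx2* depended on the control line. It had 32, 20 and 56 counts in *VillinCreERT2* organoids and 35, 38 and 17 in CDK8iIEC-KO/*Cdk19-/-* organoids, which overlapped (log2 fold change -0.06 ± 0.33, adjusted p = 0.887). C57BL/6 organoids held 678, 829 and 845 counts and *Cdk8fl/fl/Cdk19-/-* organoids 610, 590 and 639, while CDK8iIEC-KO organoids lay between with 112, 134 and 150. Set against the mean of both control lines, *Mptx2* was at -2.43 on the log2 scale (adjusted p = 3.82e-07) and all 7 members were called lower, beside 865 genes lower and 1243 higher of the 15125 tested. The control lines differed in other members too: *Lyz1* was at 2229 to 2658 CPM in C57BL/6 organoids and 592 to 624 CPM in *VillinCreERT2* organoids.

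**Figure D2:**
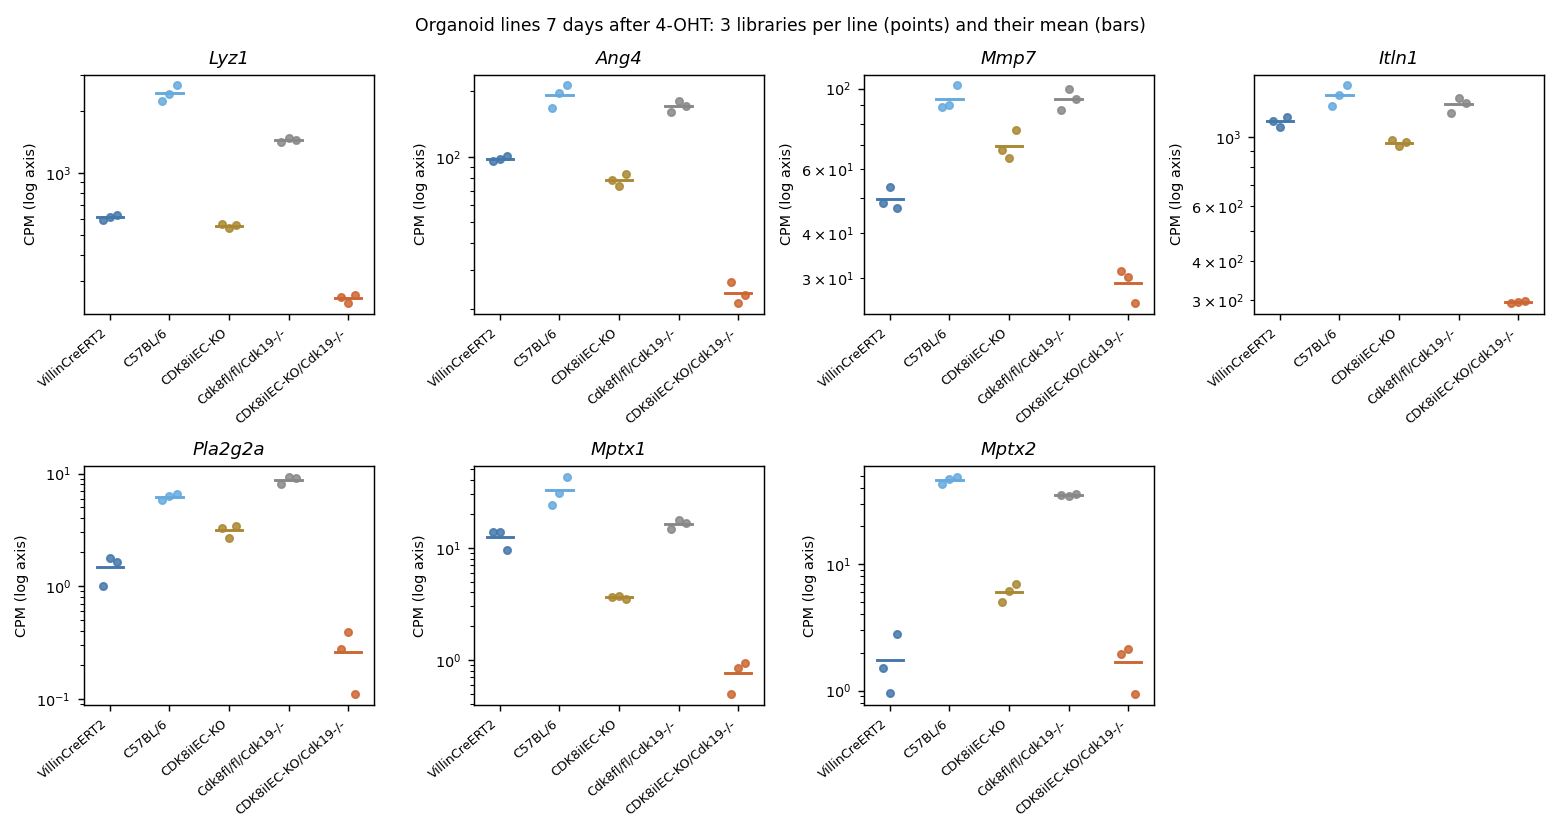
CPM (log axis) of the 7 genes in the 5 organoid lines 7 days after 4-OHT, with 3 libraries per line as points and their mean as a bar. The CDK8iIEC-KO/*Cdk19-/-* line lies below all other lines without overlap for every gene but *Mptx2*, whose *VillinCreERT2* libraries (0.960 to 2.80 CPM) lie at the level of the combined line.

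Whether combined loss exceeded the sum of the single losses was tested as a contrast of its own. The *VillinCreERT2* control cancels out of it. What remains compares the combined, CDK8iIEC-KO, *Cdk8fl/fl/Cdk19-/-* and C57BL/6 lines. On the log2 scale, 6 of 7 members were lower than the sum, beside 8.34% of genes lower and 11.3% higher. *Pla2g2a* differed from it by -4.05 ± 0.34 (adjusted p = 7.66e-10), with 1.09 and 0.50 for the single losses of CDK8 and CDK19. *Itln1* was -1.59 ± 0.08, *Ang4* -1.55 ± 0.11 and *Mmp7* -1.25 ± 0.11 (adjusted p = 4.31e-14, 2.73e-10 and 4.74e-09). *Mptx2* had -1.45 ± 0.29 (adjusted p = 0.000814), although combined loss against *VillinCreERT2* gave it only -0.06 ± 0.33. *Lyz1* differed from the sum by -0.41 ± 0.08 (adjusted p = 0.000296), under the fold threshold, and *Mptx1* was only just called (-1.23 ± 0.46, adjusted p = 0.0425), a call lost in 9 of 12 fits that left out a library.

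Wnt3 is normally supplied to stem cells by Paneth cells, and the Wnt3-CM set asked whether adding it from outside altered the response. All 7 members fell after 4-OHT in Wnt3-CM at day 10, beside 7.42% of genes lower and 9.45% higher. *Mptx1* went from 136, 174 and 157 CPM with EtOH to 4.97, 7.39 and 7.79 CPM with 4-OHT, a 23.2-fold fall (-4.53 ± 0.14 on the log2 scale, adjusted p = 3.09e-10). *Ang4* went from 1061, 1213 and 1225 CPM to 203, 179 and 211 CPM, a 5.90-fold fall (-2.56 ± 0.08, adjusted p = 1.1e-15). No library of any member overlapped between treatments. *Pla2g2a* fell 8.17-fold, *Itln1* 3.76-fold, *Lyz1* 3.04-fold, *Mptx2* 3.01-fold and *Mmp7* 2.21-fold.

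The difference between the Wnt3-CM and standard medium responses at day 10 was called for 1 of 7 members, beside 6.21% of genes lower and 7.11% higher. *Mptx1* fell further in Wnt3-CM, by -1.51 ± 0.25 on the log2 scale (adjusted p = 0.000304). *Ang4* (-0.47 ± 0.12, adjusted p = 0.00546), *Itln1* (0.46 ± 0.11, adjusted p = 0.00407) and *Mptx2* (-0.44 ± 0.16, adjusted p = 0.0494) differed by less than the fold threshold. *Lyz1*, *Mmp7* and *Pla2g2a* had differences of 0.23 ± 0.11, 0.02 ± 0.13 and 0.39 ± 0.31, with adjusted p-values from 0.149 to 0.931. With EtOH, *Mptx1* was at 136 to 174 CPM in Wnt3-CM and 19.2 to 23.9 CPM in standard medium, and *Ang4* at 1061 to 1225 and 283 to 298 CPM. Those levels were scaled separately, and the medium and the table cannot be told apart.

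In the kinase-dead line, 5 members fell after 4-OHT and *Lyz1* rose, beside 6.25% of genes lower and 6.05% higher. The 6 libraries were matched to this line by elimination, since their column names give a line number and a treatment letter but no genotype. *Lyz1* was at 521, 446 and 409.7 CPM with EtOH and 856, 776 and 910.3 CPM with 4-OHT. All 3 treated libraries were above all 3 vehicle libraries, and the rise was 1.85-fold (0.89 ± 0.09 on the log2 scale, adjusted p = 0.000118). The other called members went the opposite way. *Mptx1* went from 24.8, 21.3 and 21.7 CPM to 1.87, 2.01 and 2.18 CPM and fell 11.2-fold (adjusted p = 7.89e-08). *Ang4* went from 245, 228 and 221 CPM to 46.7, 47.5 and 59.0 CPM and fell 4.54-fold (adjusted p = 3.34e-07). *Mmp7* went from 156, 169 and 166 CPM to 35.7, 44.1 and 48.0 CPM and fell 3.85-fold (adjusted p = 1.01e-06). The ribonuclease and the protease thus moved against lysozyme in the same libraries. *Pla2g2a* fell 3.48-fold and *Itln1* 2.67-fold. *Mptx2*, at 55.9, 66.5 and 65.1 CPM with EtOH and 32.4, 46.4 and 54.7 CPM with 4-OHT, did not overlap but was not called (log2 fold change -0.49 ± 0.18, adjusted p = 0.0936).

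Other marker lists moved with 4-OHT in the same kinase-dead libraries. The 6 proximal genes summed to 1508 to 1795 CPM with EtOH and 3259.9 to 4268 CPM with 4-OHT. The 6 distal genes summed to 1457 to 1554 CPM and 1944 to 1956 CPM, and the pancreatic list, nearly all *Ctrb1*, to 28.9 to 35.6 CPM and 141 to 164 CPM. None of these ranges overlapped between treatments. The proximal and distal sums moved in the same direction here, so they are not read as a shift of region. In the *Cdk19-/-* line at day 7 the proximal sums overlapped, at 1507 to 2122 CPM and 1759.9 to 2242 CPM, while the distal sums (1316 to 1396 CPM and 1795 to 1945 CPM) and the pancreatic sums (7.06 to 9.35 CPM and 21.9 to 26.1 CPM) did not. At day 5 the distal sums (1385 to 1513 CPM and 1567 to 1627 CPM) and the pancreatic sums (9.12 to 16.8 CPM and 18.1 to 23.8 CPM) were also higher with 4-OHT without overlap, while the proximal sums overlapped. At day 10 all 3 sums were higher with 4-OHT without overlap, the distal sums at 1146 to 1225 CPM and 1351 to 1556 CPM. In Wnt3-CM the proximal and pancreatic sums were higher without overlap and the distal sums overlapped. In combined organoids against *VillinCreERT2* the proximal sums (2866 to 2997 CPM against 1935 to 2341 CPM) and the pancreatic sums (32.8 to 43.5 CPM against 16.2 to 27.1 CPM) were higher without overlap, while the distal sums overlapped. At day 3 the order was the reverse, with lower pancreatic sums (2.34 to 2.93 CPM against 5.40 to 6.71 CPM) and lower distal sums (1136 to 1213 CPM against 1402 to 1492 CPM) in 4-OHT organoids, while the proximal sums overlapped. The goblet list was lower with 4-OHT without overlap in the kinase-dead line (4339 to 5106 CPM against 5238 to 5985 CPM with EtOH). It was also lower without overlap at day 5, day 7 (2974 to 3327 CPM against 3868 to 4136 CPM), day 10 and in Wnt3-CM. In combined organoids it was at 2255 to 2487 CPM against 3771 to 3922 CPM in *VillinCreERT2*. The goblet sums overlapped at day 3. The part of these lists in the members' values was not tested.

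Set against the day 7 response of the *Cdk19-/-* line, the kinase-dead response was lower for 3 members and higher for 2, beside 6.25% of genes lower and 4.90% higher. *Lyz1* differed most, by 2.51 ± 0.14 on the log2 scale (adjusted p = 1.07e-08). The lysozyme paralog *Lyz2* was at 13 counts or fewer in each kinase-dead library, against 24759, 24686 and 22126 counts of *Lyz1* after 4-OHT. *Ang4* (-1.02 ± 0.17), *Mmp7* (-1.03 ± 0.15) and *Mptx1* (-1.05 ± 0.21) fell further in the kinase-dead line, with adjusted p-values of 0.0011, 0.000332 and 0.00233. *Pla2g2a* fell less (0.70 ± 0.23, adjusted p = 0.0394), a call lost in 9 of 12 fits that left out a library. *Itln1* (0.15 ± 0.10) and *Mptx2* (0.42 ± 0.44) gave adjusted p-values of 0.353 and 0.556. The kinase-dead allele, the line and the table cannot be told apart here. Within the vehicle libraries, *Lyz1* was at 363 ± 44.9 CPM per kb in the kinase-dead line and 2767 ± 271 in the *Cdk19-/-* line, each scaled separately.

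**Figure D3:**
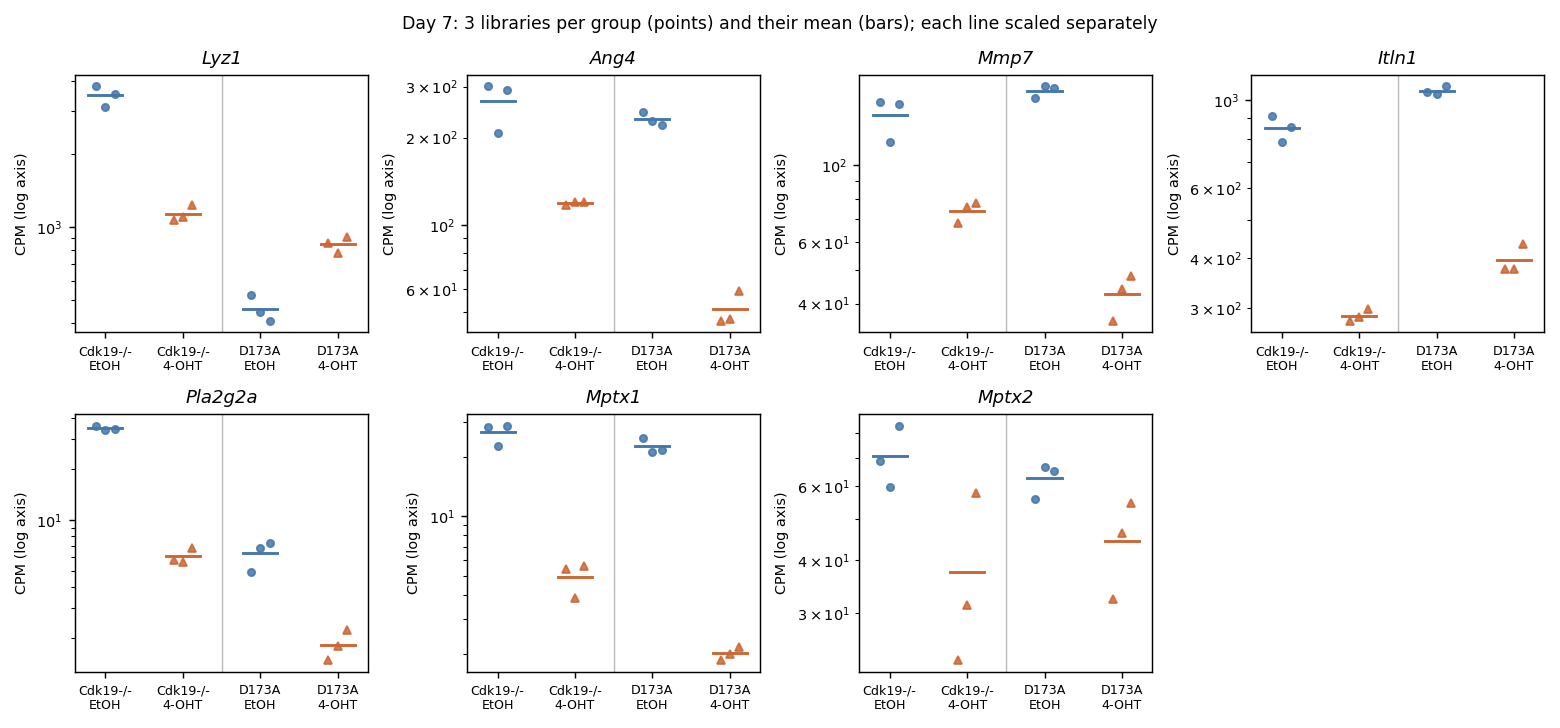
CPM (log axis) of the 7 genes at day 7 with EtOH and 4-OHT in the *Cdk19-/-* line of the time course and in the kinase-dead line, with 3 libraries per group as points and their mean as a bar. *Lyz1* is the single panel in which the treatments run in opposite directions in the 2 lines.

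In IECs from mice, every member was lower in all 3 CDK8iIEC-KO/*Cdk19-/-* libraries than in all 3 *VillinCreERT2* libraries, and 2 of 7 passed the test, beside 0.856% of genes called lower and 0.646% higher. *Mmp7* was at 82.7, 59.2 and 77.5 CPM in *VillinCreERT2* IECs and 13.2, 18.4 and 10.4 CPM in CDK8iIEC-KO/*Cdk19-/-* IECs. It fell 5.22-fold (-2.38 ± 0.24 on the log2 scale, adjusted p = 0.0166). *Itln1* was at 1434, 902 and 957 CPM and 215, 326 and 244 CPM and fell 4.20-fold (-2.07 ± 0.24, adjusted p = 0.02). Neither call held in every fit: without CDK8iIEC-KO/*Cdk19-/-* replicate 1, *VillinCreERT2* replicate 1 or *VillinCreERT2* replicate 3, no member was called, and without CDK8iIEC-KO/*Cdk19-/-* replicate 3 *Mmp7* alone was. Leaving out *VillinCreERT2* replicate 2 left 4 called. DESeq2 called 5, in a fit that called 355 of all genes lower and 504 higher, against 130 and 98 in edgeR.

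The other members varied more between mice. *Lyz1* was at 2248, 1557 and 2273 CPM in *VillinCreERT2* IECs and 332, 1177 and 353 CPM in CDK8iIEC-KO/*Cdk19-/-* IECs (log2 fold change -1.71 ± 0.55, adjusted p = 0.182). CDK8iIEC-KO/*Cdk19-/-* replicate 2 held over 3 times the *Lyz1* of the other libraries of its group, and without it the log2 fold change was -2.57 (adjusted p = 0.0173). *Ang4* was at 709, 247 and 303 CPM and 105, 74.7 and 104 CPM (-2.15 ± 0.44, adjusted p = 0.0868), with *VillinCreERT2* replicate 1 far above the rest. Without that replicate the value was -1.54 and was not called, and without *VillinCreERT2* replicate 2 *Ang4* was called (adjusted p = 0.0129). *Pla2g2a* gave -1.94 ± 0.55 (adjusted p = 0.151), and -2.63 (adjusted p = 0.054) without CDK8iIEC-KO/*Cdk19-/-* replicate 2. *Mptx1* was rare in these mice, with 110, 44 and 43 counts and 15, 3 and 11 counts (-2.86 ± 0.64, adjusted p = 0.091). It gave -2.26 (adjusted p = 0.237) without *VillinCreERT2* replicate 1 and was called without *VillinCreERT2* replicate 2 (adjusted p = 0.0227). *Mptx2* showed the least difference, at 287, 152 and 171 CPM and 133, 149 and 80.9 CPM (-0.75 ± 0.32, adjusted p = 0.261).

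IEC libraries also held other cells, and several of their markers separated by genotype together with the members. *Lyz2*, the myeloid lysozyme, was at 47, 6969 and 463 counts in *VillinCreERT2* IECs and 13123, 4629 and 5064 counts in CDK8iIEC-KO/*Cdk19-/-* IECs. The 9 immune markers summed to 1661, 3006 and 2785 CPM and 2947, 1884 and 1829 CPM, and all 9 were detected in every library. *Cd74*, an antigen presentation gene that made up most of that sum in *VillinCreERT2* IECs, was lower in all CDK8iIEC-KO/*Cdk19-/-* libraries (1597 to 2692 CPM and 998 to 1375 CPM). Which cells held *Cd74* cannot be told in bulk RNA, so the sum is not a measure of immune cells alone. Plasma cell and T cell genes were higher in all CDK8iIEC-KO/*Cdk19-/-* libraries without overlap: *Igkc* at 10.1 to 117 CPM and 299 to 527 CPM, *Jchain* at 2.14 to 31.4 and 88.9 to 149, *Cd8a* at 21.1 to 40.6 and 47.0 to 82.6, and *Cd3e* at 8.28 to 16.5 and 18.7 to 29.6. The other 4 immune markers overlapped. The 6 mesenchymal markers (*Col1a1*, *Col1a2*, *Col3a1*, *Vim*, *Pdgfra* and *Dcn*) summed to 12.8, 881 and 54.9 CPM and 963, 600.2 and 453 CPM, and *Pdgfra* reached 0 among the *VillinCreERT2* libraries. The pancreatic list summed to 0.933, 5.05 and 0.588 CPM and 48.1, 63.9 and 5.65 CPM, and the epithelial list to 8142, 7592 and 8026 CPM and 6665, 6564 and 6989.9 CPM. The pancreatic sums were higher and the epithelial sums lower in all 3 CDK8iIEC-KO/*Cdk19-/-* libraries, while the mesenchymal sums overlapped. *VillinCreERT2* replicate 2, the control with the most *Lyz2* and mesenchymal transcript, also had the lowest level of its group for 6 of the 7 members, all but *Mptx1*. The part of these cells in the IEC differences was not tested.

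**Figure D4:**
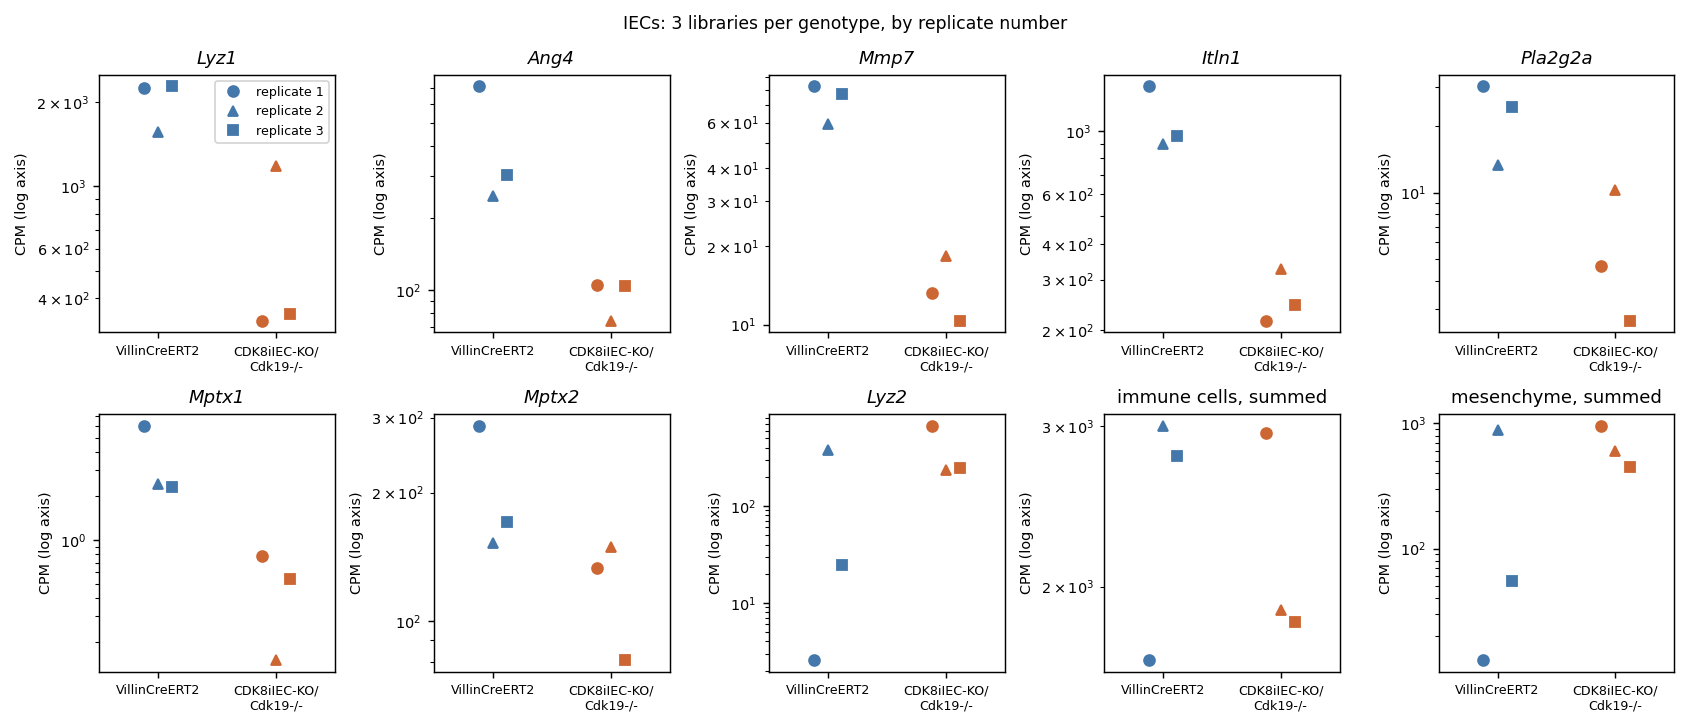
CPM (log axis) of the 7 genes in the 3 *VillinCreERT2* and 3 CDK8iIEC-KO/*Cdk19-/-* IEC libraries, by replicate number, with *Lyz2* and the summed marker lists of other cells beside them. Each of the 7 genes is lower in all CDK8iIEC-KO/*Cdk19-/-* libraries, while *Lyz2* ranges from 47 to 6969 counts among the *VillinCreERT2* libraries alone.

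Of the 10 comparisons with a control, 9 were in organoids. They are not independent, since the 4 time points and the Wnt3-CM set share a line and CDK8iIEC-KO and combined organoids share the *VillinCreERT2* control. *Mptx1* was called lower in all 9. *Lyz1*, *Ang4*, *Mmp7*, *Itln1* and *Pla2g2a* were each called lower in 6 of them, and *Mptx2* in 3. *Pla2g2a* and *Mptx2* were each called higher in 2 and *Lyz1* in 1. For *Pla2g2a* and *Mptx2* these were day 3 and CDK8 loss against *VillinCreERT2*. C57BL/6 organoids held more of both genes than the CDK8iIEC-KO line.

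**Figure D5:**
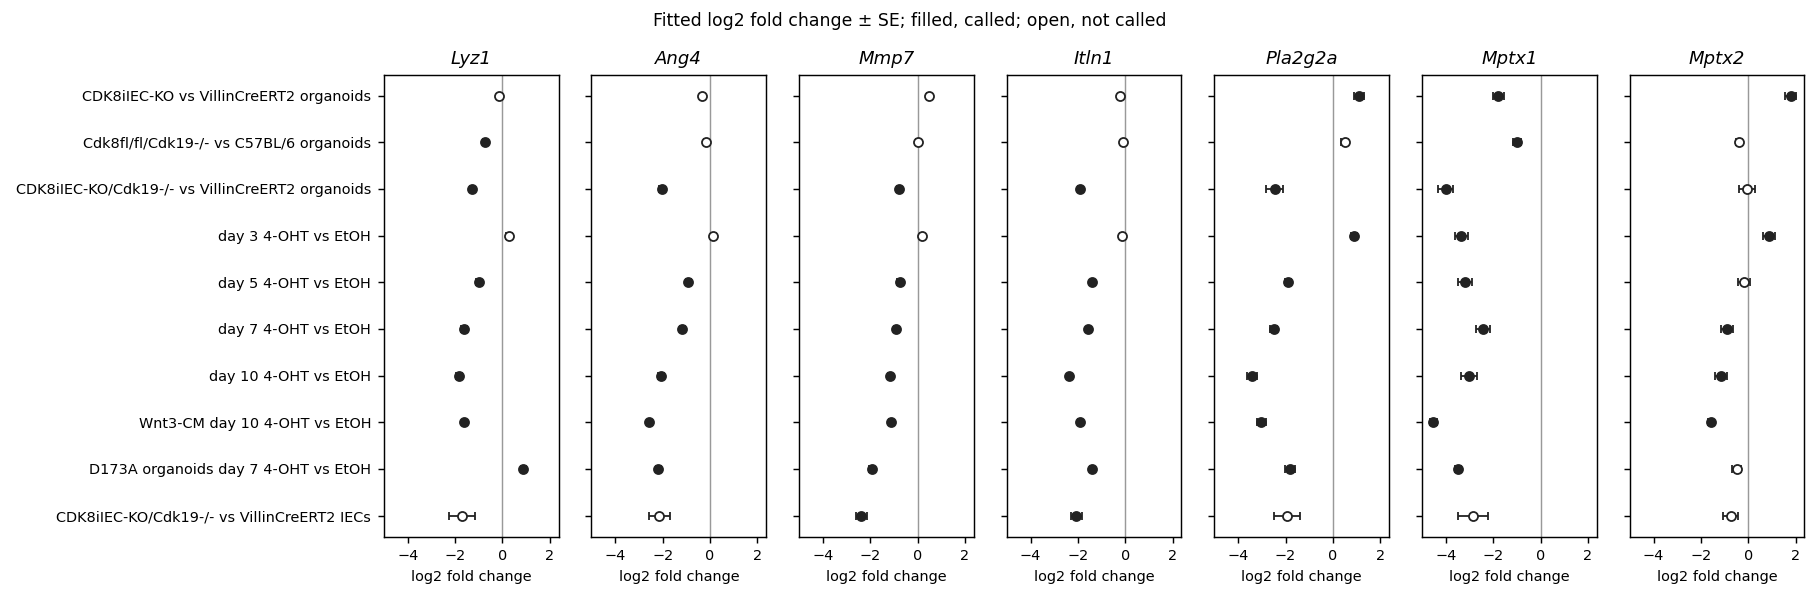
Fitted log2 fold change ± SE of each of the 7 genes in the 10 comparisons, with filled points for called changes and open points for the others. *Mptx1* and *Itln1* are to the left of 0 in every comparison, and the other 5 genes lie on both sides of 0.

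Regulators of the Paneth and secretory lineages were read beside the effectors. *Atoh1*, the transcription factor that commits cells to the secretory lineage, was at 0.10 ± 0.07 on the log2 scale at day 3 and fell by day 5 (-0.78 ± 0.07), day 7 (-0.92 ± 0.08) and day 10 (-1.16 ± 0.08; adjusted p = 4.71e-12). It also fell with combined loss (-0.80 ± 0.10) and in Wnt3-CM (-0.82 ± 0.10), and in the kinase-dead line it had -0.22 ± 0.11 (adjusted p = 0.188). The kinase-dead and *Cdk19-/-* responses of *Atoh1* differed by 0.70 ± 0.15 (adjusted p = 0.00384). *Sox9*, which Paneth cells need to form, had 0.46 ± 0.09 at day 3, under the fold threshold, and fell at day 7 (-0.92 ± 0.09) and day 10 (-0.86 ± 0.09). *Gfi1*, which acts after *Atoh1*, fell at day 7 (-0.74 ± 0.18) and day 10 (-0.89 ± 0.18), and *Spdef*, a factor of goblet and Paneth maturation, was called at day 10 (-0.84 ± 0.09) and not at day 7 (-0.49 ± 0.09). *Wnt3*, a Paneth cell signal to stem cells, rose at day 3 (0.68 ± 0.12, adjusted p = 6.02e-05) and fell at day 7 (-1.58 ± 0.13) and day 10 (-1.45 ± 0.13).

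Of 24 other Paneth cell genes, 23 were tested in the time course, and 9 fell and 4 rose at day 7, beside 9.25% of all genes lower and 9.00% higher, with a median log2 fold change of -0.49 against -0.01 over all genes. Their summed transcript at day 7 went the other way, at 2649 to 2844 CPM with EtOH and 3174 to 3388 CPM with 4-OHT, without overlap. In combined organoids the sum was also higher without overlap, at 3031 to 3217 CPM against 2213 to 2323 CPM in *VillinCreERT2*. *Bhlha15*, the MIST1 factor of secretory cells, fell most (-1.74 ± 0.10), and *Nod2*, an intracellular sensor of bacterial peptidoglycan (1.85 ± 0.36), and *Reg3g*, a bactericidal lectin (1.85 ± 0.25), rose. *Reg3g* had been lower at day 3 (-2.69 ± 0.26, adjusted p = 3.4e-07). The 7 effectors had a day 7 median of -1.57. In IECs, 4 of the 24 were called lower and none higher, beside 0.856% and 0.646% of all genes, and the sum was lower without overlap, at 2049 to 7201 CPM in CDK8iIEC-KO/*Cdk19-/-* IECs against 7904 to 16846 CPM in *VillinCreERT2* IECs.

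Of 21 genes of the same families, 11 were tested in the time course. At day 7, 3 of the 11 fell and 1 rose, beside 9.25% and 9.00% of all genes: *Pla2g2f* (-1.63 ± 0.18), *Pla2g5* (-1.30 ± 0.26) and *Pla2g4c* (-1.16 ± 0.46, named after its values were seen) fell while *Mmp15*, a membrane-bound metalloproteinase, rose (0.88 ± 0.07). *Pla2g5* overlaps *Pla2g2a* on the opposite strand without sharing an exonic base. It rose with *Pla2g2a* at day 3 (0.85 ± 0.24) and in CDK8iIEC-KO organoids (0.60 ± 0.17), and fell with it at day 10 (-1.77 ± 0.27) and after combined loss (-1.77 ± 0.24). *Lyz2* had 25 counts or fewer in every organoid library.

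Genes whose pattern over the 24 time course libraries was most like the mean of the 7 were sought as a description, by Pearson correlation of log2 CPM. The 10 closest were *Defa17*, *Defa26*, *Defa30*, *Tiam1*, *Defa24*, *Pla2g2f*, *Defa21*, *Hmga1b*, *Mybbp1a* and *Nup188*, with r from 0.976 down to 0.942. Of these, 5 are alpha-defensins, whose near-identical copies can exchange reads. The points share treatment, day and line.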

How the data were processed

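RNA-Seq of polyadenylated RNA was analysed in 57 libraries. The authors deposited raw counts of reads per gene in 4 tables, made with STAR (2.5.2) and featureCounts of Subread (1.6.3) on mm10 per the submitters' processing notes. The strand setting is not given in the sources used here. Table columns were matched to samples by name. The Wnt3-CM columns were matched to groups only, by the line, day and treatment letter in their names and a W. No other labelled day 10 organoids were left for them. The kinase-dead organoid columns were matched by elimination, and 6 columns of kinase-dead IECs were not used because a letter in their names is not explained, so that planned comparison was not run. The 7 genes and all gene lists were chosen with earlier results of these data known.

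The Wnt3-CM and kinase-dead libraries shared a table and were analysed as separate sets. Each of the 5 sets was filtered with filterByExpr, scaled by TMM and fitted with edgeR (4.0.16, R 4.3.3) in the robust quasi-likelihood model. All groups of a set shared a fit. Differences between responses were contrasts, and those across tables were fitted on the joined counts. P-values were adjusted by Benjamini-Hochberg over all genes tested (13745 to 15636 per fit), and calls needed an adjusted p under 0.05 and a fold over 1.5. CPM used TMM-scaled totals within a set, and CPM per kb used GENCODE vM21 exon lengths. Scripts were tested on simulated data. All 7 genes were named in every comparison. From the lists, *Lyz2*, *Atoh1*, *Gfi1*, *Sox9*, *Spdef*, *Wnt3* and the 2 largest called rises and falls at day 7 of the relatives and of the other Paneth genes were named, with the 10 genes most like the mean of the 7.

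Libraries of a group differed by more than sampling noise (lowest chi-square per degree of freedom 2.33), so none was a duplicate. Replicate numbers did not pair the libraries: deviations of same-numbered libraries correlated at -0.409 to 0.232, and 0 of 8 comparisons had every pair over 0.1. Alternatives were no filter or at least 10 counts in every library, DESeq2 (1.42.0) and its size factors, no TMM, limma-voom (3.58.1), fits of only the groups compared, both control lines together, a replicate block, and leaving out each library. Figures and tables used Python 3.11.15, numpy 2.4.6, pandas 2.3.3 and matplotlib 3.10.9.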

Additional observations from a re-analysis of the deposited data

Results flagged for a closer look

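The tests of a difference between responses singled out 12 values, all log2 differences with adjusted p-values from edgeR. Between day 3 and day 10 the 4-OHT response moved lower for *Lyz1* (-2.11), *Ang4* (-2.23), *Mmp7* (-1.34), *Itln1* (-2.23), *Pla2g2a* (-4.30) and *Mptx2* (-2.02), with adjusted p-values of 0.000228 or less. Between standard medium and Wnt3-CM at day 10, the *Mptx1* response differed by -1.51 (adjusted p = 0.000304).

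Between the *Cdk19-/-* and kinase-dead lines at day 7, the response of *Lyz1* differed by 2.51 (adjusted p = 1.07e-08), a fall in the first line and a rise in the second. In the same contrast *Ang4* (-1.02), *Mmp7* (-1.03) and *Mptx1* (-1.05) fell further in the kinase-dead line, and *Pla2g2a* fell less (0.70, adjusted p = 0.0394).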

How the results depend on the processing

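Of 1461 member values under alternatives, 1409 kept their direction and side of the threshold, 32 lost a call, 9 gained one and 11 changed sign while called in neither fit. The cause was not tested. With at least 10 counts in every library, 1 member was called in CDK8iIEC-KO organoids, where 5 members could be tested (3 called otherwise), and 1 in *Cdk8fl/fl/Cdk19-/-* organoids (2 otherwise). This filter removed *Pla2g2a* (lowest count 2) and *Mptx1* (lowest count 9) from all the organoid lines. Their calls with combined loss, and against the sum of single losses, could therefore not be tested under it. In IECs, DESeq2 called 5, and the replicate block called 0 of 7 (*Mmp7* and *Itln1* both at adjusted p = 0.0809); without the block 2 were called. The block changed the number of members called in no other comparison that could be paired. No paired analysis was possible for Wnt3-CM and kinase-dead organoids because their column numbers are not tied to the labels. *Mptx1* in IECs was called without a filter (adjusted p = 0.00131).

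Leaving out a library gave 0 to 4 members called in IECs, 2 to 3 at day 3, 6 to 7 in kinase-dead organoids, 5 to 6 for combined loss against the sum of single losses and 4 to 5 for the kinase-dead against the *Cdk19-/-* response. It left the count at 3, 2 and 6 in the organoid line comparisons, 6, 7 and 7 at days 5, 7 and 10, 6 for day 10 against day 3, 7 in Wnt3-CM and 1 between media. *Mptx2* in kinase-dead organoids gained a call without 4-OHT replicate 3 (adjusted p = 0.0254). The kinase-dead difference of *Pla2g2a* lost its call with limma-voom (0.0625) and without TMM (0.0569).

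The sign changes were as follows. *Mmp7* in *Cdk8fl/fl/Cdk19-/-* organoids gave log2 fold changes of 0.0053 without a filter, 0.0085 with DESeq2, 0.0084 with its size factors and -0.043 to 0.069 when a library was left out. Leaving out a library gave *Mptx2* values of -0.36 to 0.43 in combined organoids and -0.28 to 0.0061 at day 5, and *Mmp7* differences of -0.084 to 0.14 between media.

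Over all genes, at least 10 counts in every library gave 476 calls against 794 for CDK19 loss and 1303 against 2040 at day 5. IECs had 228 calls, against 1103 without a filter, 859 with DESeq2 and 8 with the block. Without TMM, genes lower and higher went from 919 and 991 to 606 and 1384 at day 3, from 1920 and 2146 to 2765 and 1421 for day 10 against day 3, from 656 and 438 to 555 and 582 for CDK8 loss, from 966 and 935 to 1297 and 767 in kinase-dead organoids, from 130 and 98 to 75 and 120 in IECs, and from 891 and 1020 to 681 and 1346 between media. The balance also turned at day 10, from 1069 and 1368 to 1301 and 1173, and day 7 went from 1429 and 1391 to 1692 and 1157. Counting error weighs most on the values with fewest reads, such as *Pla2g2a* in combined organoids.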

Other observations

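Goblet cells, the other secretory cells that make *Itln1*, were read through 10 genes. At day 10, 4 of 9 tested fell and none rose, beside 6.92% of all genes lower and 8.86% higher, with *Ccl6* at -3.17 ± 0.38, *Ccl9* at -1.61 ± 0.16, *Fcgbp* at -1.24 ± 0.12 and *Spink4* at -1.03 ± 0.16 on the log2 scale, while the mucin *Muc2* gave -0.57 ± 0.21, under the fold threshold. In the kinase-dead organoids 3 fell and 2 rose, beside 6.25% lower and 6.05% higher. In IECs 3 of 10 fell, beside 0.856% of all genes: *Fcgbp* (-1.65 ± 0.14), *Muc2* (-1.06 ± 0.18) and *Spink4* (-1.24 ± 0.18), and the summed goblet list was at 12848, 15090.3 and 12696 CPM in *VillinCreERT2* IECs and 7776, 5340.2 and 6456 CPM in CDK8iIEC-KO/*Cdk19-/-* IECs. These genes were named after their values were seen.

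Over the 24 time course libraries, which share treatment, day and line, the closest pair of the 7 genes was *Ang4* and *Itln1* (Pearson r of log2 CPM 0.964) and the least alike were the paralogs *Mptx1* and *Mptx2* (r = 0.349). *Lyz1* lay closest to *Mmp7* (r = 0.921), and *Pla2g2a* closest to *Ang4* (r = 0.902).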
